A study of Mus musculus with 4 samples.

Results

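The NF-YA ChIP-seq library of E14Tg2a cells gave 4642 binding sites called against input DNA, out of the 10091 sites in the lists of the 3 NF-Y subunits. All sites of the NF-YA list were taken, so the members were chosen by their list alone and not by any value. E14Tg2a is an embryonic stem cell line from mice of the 129/Ola strain. The cells, at passage 20 to 35, were grown for ChIP in medium with serum and leukaemia inhibitory factor, and the labels name no knockdown or other treatment of the 4 ChIP-seq samples. Chromatin was fixed in 1% formaldehyde for 10 min and sheared to about 200 to 500 bp. NF-YA was precipitated with 2 µg of a mouse monoclonal antibody, while the input library came from the same cells without an antibody. Both groups consisted of 1 library, so no value below has a replicate check, and intervals cover counting error over tags or sites only. Sites are given by their mm9 position. The genome sequence and gene annotation of that build were not used here, so no gene, exon or promoter is assigned to a site.

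NF-Y is a transcription factor of 3 subunits. NF-YB and NF-YC pair through histone-fold domains, and NF-YA joins the pair and reads the CCAAT box, a short DNA element common in promoters. In many cell types NF-Y is known for binding promoters of cell cycle and housekeeping genes, and in embryonic stem cells it has been linked to open chromatin. In ChIP-seq, sequenced ends of precipitated fragments (tags) pile up on either side of a bound position. The authors' caller, SISSRs, places a site where tags of the sense strand give way to tags of the antisense strand. The width of a site is therefore the width of that turning point and not the length of a bound domain. The count of tags is the strength of the site, and the fold is that count over the input tags at the same place, scaled for library size. All tag counts, folds and p-values of single sites are the authors' values.

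The NF-YA library held 15698185 tags, and the 11479998 that remained with 1 tag per position (73.1%) entered the call, against 13767116 input tags. Per the file headers, the limits were 14 tags and a fold of 7. The smallest counts seen were 14 tags, at 225 sites (4.85% of the list), and the lowest fold was 7.02. Sites at 14 tags included the one on chromosome 1 at 74158091 to 74158131, with a fold of 8.39. The fold of 7.02 was shared by sites with 41 tags over 7 input tags, such as the one on chromosome 11 at 102465571 to 102465611. Values just outside these limits were not analysed here, since the list holds the passing sites.

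NF-YA site strength was strongly skewed. The median site had 34 tags (95% interval 33 to 36), the middle 50% of sites ran from 21 to 65 tags, and 10% of sites had 113 tags or more. Sites of 14 to 19 tags numbered 997 (21.5%), and sites of 200 tags or more numbered 93 (2.00%, 1.62 to 2.45). The 465 strongest sites, 10% of the list, held 31.5% of all 240349 site tags. It took 954 sites, each with 75 tags or more, to reach 50% of the tags, whereas the weaker 2321 sites together held 21.2%. The plot of site strength shows these counts in bins of 10 tags.

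**Figure D1:**
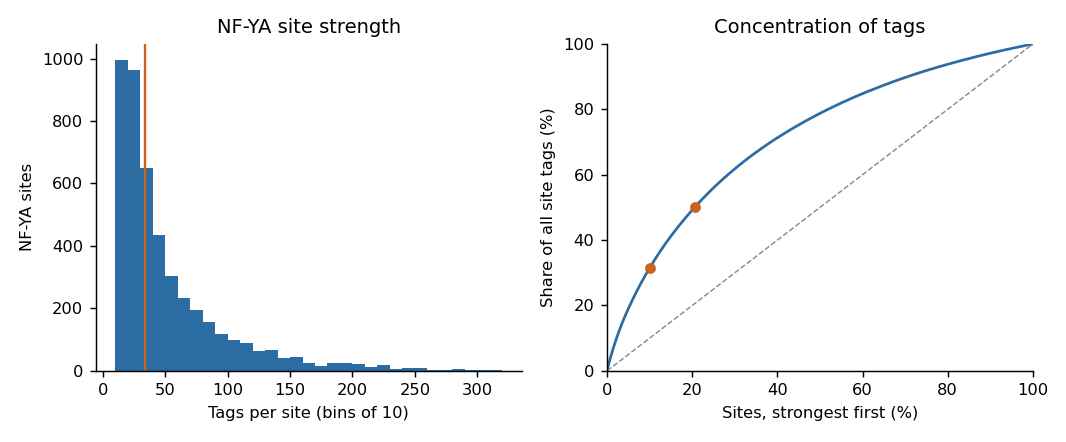
Left, histogram of tags per NF-YA site in bins of 10 tags, with the median of 34 tags as a vertical line. Right, cumulative share of all site tags (%) against sites ranked from the strongest (%), where the dots mark the 465 sites that held 31.5% and the 954 sites that held 50%, and the dashed line is an even split. The histogram falls from its lowest bins to a long tail ending at 312 tags.

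The 10 sites with most tags lay on 6 chromosomes and had 287 to 312 tags each. They were narrow, with 8 of 40 bp and 2 of 60 bp, and the nearest other NF-YA site lay 23.7 to 115 kb away. First stood the site on chromosome 15 at 102236451 to 102236491, whose 312 tags carry an exact Poisson interval of 278 to 349. It was followed by chromosome 8 at 72520351 to 72520391 with 311 tags and chromosome 10 at 128133491 to 128133531 with 307 tags. Chromosome 11 held the next 2, with 293 tags at 96839151 to 96839191 and 292 tags at 55282971 to 55283031. The site on chromosome 15 at 76181611 to 76181651 and the one on chromosome 7 at 86417951 to 86417991 had 290 tags each. The remaining 3 were chromosome 8 at 86590571 to 86590631 with 289 tags, a second site of chromosome 7 at 133540371 to 133540411 with 287 tags and, with the same count, chromosome 14 at 52723831 to 52723871. Counting error does not separate these ranks: 34 sites, counting the first itself, had Poisson intervals that overlapped the interval of the first.

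Recovered input counts and listed folds differed widely among these strong sites, but the fold intervals given below overlap. The fold gives back the input count at a site, because the tag count divided by the fold and by the ratio of kept tags to input tags (0.834) is a whole number, within the rounding of the fold, at 4294 of the 4642 sites (92.5%). The first site had 4 input tags and a fold of 93.5 (95% interval 36.2 to 345 from the counts of both libraries). The third, on chromosome 10 at 128133491, had 9 input tags, and its fold of 40.9 (21.3 to 90.3) ranked 618 in the list. In contrast, the sites of 290 tags on chromosomes 15 and 7 had 1 input tag, and both had the highest fold of the list, 348 (61.9 to 13783). A recovered count of 1 was the lowest of the list, and a fold cannot be taken over 0, so a site with no input tag may be listed as if it had 1.

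The highest NF-YA folds were mostly sites of the lowest input. The first 5 by fold had 1 input tag each, and after the pair at 348 came chromosome 3 at 89215851 to 89215911 with a fold of 297 and chromosome 17 at 56218951 to 56218991 with 289. The last of the 5 was chromosome 17 at 33897431 to 33897471 with a fold of 271. These last 3 ranked 29, 36 and 49 by tags. Of the 87 sites with a fold over 100, 62 (71.3%, 60.6 to 80.5) had 1 input tag, against 964 of all 4642 sites (20.8%, 19.6 to 22.0). The fold was also the less precise measure. For a median site the upper bound of the fold was 17.9 times its lower bound, whereas for tags that ratio was 2.02. The interval of 2989 of the 4294 sites with a whole input count (69.6%) reached the lower bound of the highest fold. At 775 of these sites (18.0%, 16.9 to 19.2), 1 more input tag would have taken the fold below 7. The deposited p-value followed the fold alone: no fold had more than 1 p-value, and 9 sites were listed with a p of 0.

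Most NF-YA sites had few input tags. The median was 3 and the mean 3.03, and 3094 sites (66.7%, 65.3 to 68.0) had 3 or fewer. For scale, input tags spread evenly over the mappable genome would give 1.52 tags per fragment length of 234 bp and 3.03 tags per stretch of 2 fragment lengths. No source used here gives the stretch over which the caller counted. Only 26 sites (0.560%, 0.366 to 0.820) had 10 input tags or more. Highest was the site on chromosome 11 at 85166611 to 85166651, with 15 input tags under 198 NF-YA tags and a fold of 15.8. The site on chromosome 10 at 79317231 to 79317271 had 14 input tags under 256 NF-YA tags, a fold of 21.9. The next had fewer NF-YA tags: chromosome 7 at 53042551 to 53042611 had 80 over 13 input tags. Sites with 12 input tags on chromosome 8 at 113494271 to 113494331 and chromosome 5 at 23536551 to 23536591 had 90 and 88 tags. These sites of high input thus included strong sites, which ranked 94 and 24 by tags, as well as sites close to the lowest fold.

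Tags and local input rose together across sites, in a list whose fold limit leaves out low counts at high input. The median NF-YA tag count was 22 at sites with 1 input tag (interval 21 to 23), 23 with 2, 35 with 3, 47 with 4, 56 with 5 and 78 with 6. Because a fold of at least 7 was required, a site with 3 input tags needed 18 tags, one with 5 needed 30 and one with 8 needed 47, and the lowest counts seen were exactly 18, 30 and 47. With 1 or 2 input tags the minimum of 14 tags was the limit instead. Spearman's rank correlation between tags and input was 0.54 over the 4642 sites, which share one library pair. Among the 729 sites with 88 tags or more, which would pass at every input count seen, the rank correlation was 0.12. That set is chosen by tags, and the narrower range of tags alone lowers a rank correlation, so the part of the fold limit in the drop cannot be told apart. In that strong set the median was 119.5 tags (103 to 130) for 60 sites with 1 input tag and 132.5 tags (122 to 139) for 220 sites with more than 5, with overlapping intervals. The plot of NF-YA tags against local input shows the empty corner that the limits leave.

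**Figure D2:**
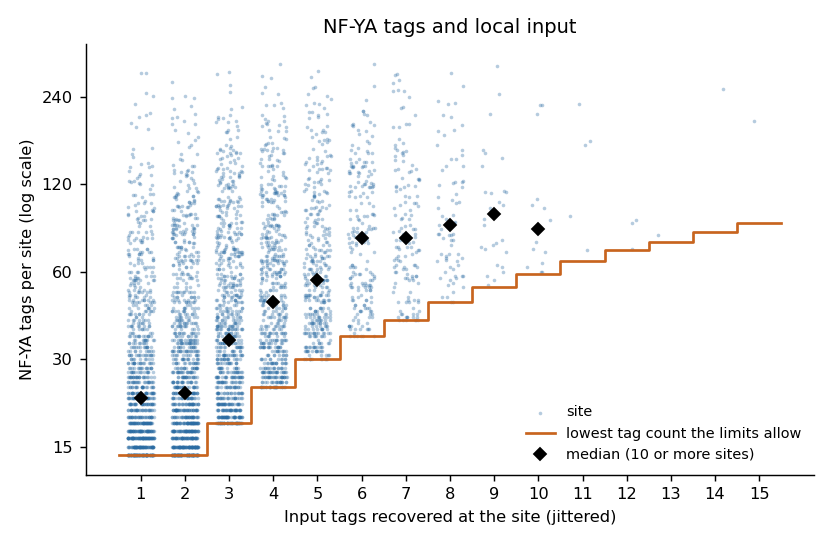
NF-YA tags per site (vertical, log scale) against the input tags recovered at that site (horizontal, points spread sideways at random), for the 4294 sites with a whole input count. The stepped line is the lowest tag count the caller's limits allow, which climbs from 14 to 88 tags, and diamonds are medians for input counts with 10 sites or more. Up to 9 input tags the medians climb with the line, while the upper edge stays between 270 and 312 tags.

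NF-YA sites were short, and the shortest were the strongest. Widths came in steps of 20 bp, the caller's scanning window, from 40 to 500 bp. The smallest width, 40 bp, was the commonest with 1859 sites (38.6 to 41.5% of the list), and 1150 more were 60 bp wide (24.8%). A further 1633 sites (35.2%, 33.8 to 36.6) were wider than 60 bp and 221 (4.76%, 4.17 to 5.41) wider than 200 bp. The median tag count fell from 50 (47 to 53) at 40 bp to 35 (33 to 37) at 60 bp, 28 (26 to 30) at 80 to 100 bp and 24 (23 to 25) at 120 to 200 bp. It was 27.5 (25 to 31) at 220 to 300 bp and 34 (29 to 43) at 320 to 500 bp. The decline thus ended at about 200 bp, and the few very wide sites had more tags than those of 120 to 200 bp. At 100 tags or more stood 22.2% of the 40 bp sites (20.3 to 24.2) but 2.42% of those of 120 to 200 bp (1.48 to 3.71).

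**Figure D3:**
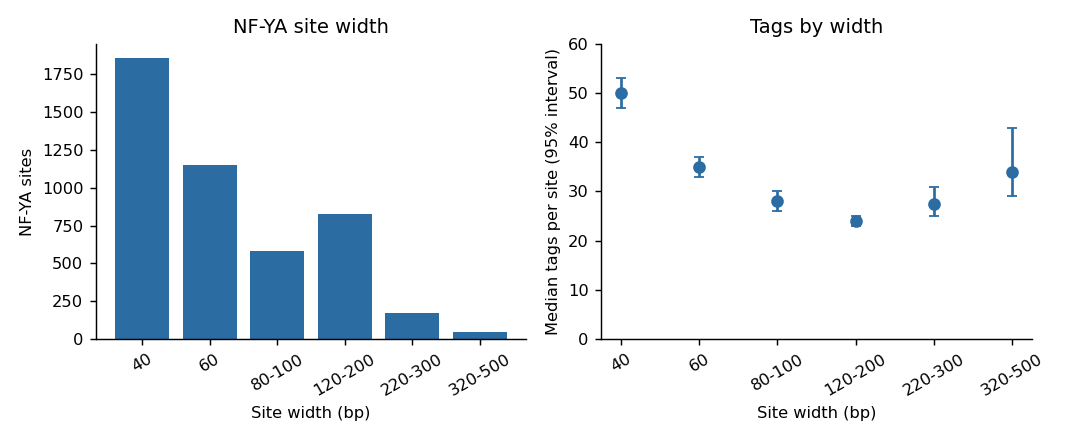
Left, number of NF-YA sites by width class (bp). Right, median tags per site in the same classes with 95% order-statistic intervals, which falls from 50 tags at 40 bp to 24 at 120 to 200 bp and is 34 at 320 to 500 bp.

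Seen from strength, the share of sites wider than 60 bp was 47.8% at 14 to 19 tags (44.7 to 51.0) and 49.4% at 20 to 29 tags (46.2 to 52.6). It then fell to 35.7% at 30 to 49 tags, 22.1% at 50 to 99 tags, 12.7% at 100 to 198 tags and 8.60% (3.79 to 16.2) at 200 tags or more. With fewer tags the turning point between strands is set by fewer positions, and whether that alone gives the wider sites was not tested. Width also marked the sites whose fold was not tags over a whole input count. There were none among the 3009 sites of up to 60 bp, 9.76% at 80 to 100 bp, 25.1% at 120 to 200 bp and 51.1% (36.1 to 65.9) at 320 to 500 bp. No source used here says how the caller computed the fold of these 348 sites.

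The 5 widest NF-YA sites ranged in strength from the first quartile of the list to above the third. The site on chromosome 17 at 3557471 to 3557971 was 500 bp wide with 76 tags and a fold of 73.2. The other site of 500 bp, on chromosome 6 at 113256411 to 113256911, had 42 tags over 2 input tags and a fold of 25.2. Next, at 480 bp each, came chromosome 7 at 71537231 to 71537711 with 22 tags, chromosome 5 at 135625031 to 135625511 with 44 tags and chromosome 5 at 86494211 to 86494691 with 21 tags. Their folds were 18.0, 17.6 and 16.8, close to the list's median of 16.8.

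NF-YA sites lay far apart as a rule, with a smaller number of close neighbours. The nearest other NF-YA centre was a median of 64.6 kb away (61.1 to 69.0), with quartiles of 19.9 and 180 kb. Within 100 kb of another site lay 2809 sites (60.5%), within 10 kb 758 (16.3%, 15.3 to 17.4), and within 1 kb 273 (5.88%, 5.22 to 6.60). Over 1 Mb from any other lay 210 sites (4.52%, 3.94 to 5.16). In distance classes that double, the count did not fall evenly towards short range. It fell from 602 sites at 16 to 32 kb through 337 at 8 to 16 kb and 204 at 4 to 8 kb to 95 at 2 to 4 kb and 86 at 1 to 2 kb. At shorter range it rose again, to 116 sites at 500 to 1000 bp and 149 at 250 to 500 bp. The share was 1.85% at 1 to 2 kb (1.48 to 2.28) and 3.21% at 250 to 500 bp (2.72 to 3.76). Both members of a close pair are counted here, so these intervals are too narrow, and whether the shares differ was not tested. In the NF-YB list the corresponding shares were 1.01% (0.672 to 1.46) and 2.09% (1.59 to 2.69), and in the NF-YC list both were 1.31% (0.913 to 1.82).

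**Figure D4:**
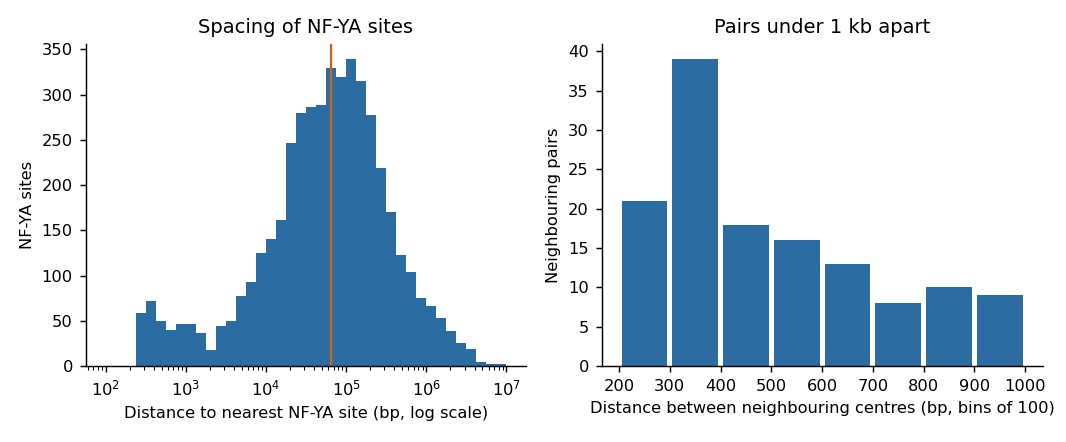
Left, histogram of the distance from each NF-YA site to its nearest NF-YA neighbour (bp, log scale), with the median of 64.6 kb as a vertical line. Right, number of neighbouring pairs by distance between centres in bins of 100 bp, for pairs under 1 kb; the first bin is filled from 240 bp upward. The left panel shows a small second rise below about 2 kb, and the right panel its highest bin, with 39 pairs at 300 to 400 bp.

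Of the 137 neighbouring pairs at most 1 kb apart, 78 were under 500 bp apart, with 39 at 300 to 400 bp and 18 at 400 to 500 bp. None was closer than 240 bp, and the NF-YB and NF-YC lists had the same shortest distance, although the caller's fragment lengths were 234, 224 and 238 bp. In the NF-YA pairs at 240 and 250 bp, 200 bp lay between the sites' ends. The 5 closest pairs were unequal in tag count in 4 cases. On chromosome 7 the site at 4764211 to 4764251 had 32 tags and its neighbour at 4764451 to 4764491, 240 bp away, had 99. On chromosome 13 the site at 58503611 to 58503651 had 41 tags and its neighbour at 58503851 to 58503891, also 240 bp away, had 18.

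At 250 bp apart, the sites on chromosome 5 at 143686131 to 143686171 and at 143686371 to 143686431 had 31 and 14 tags. Those on chromosome 14 at 76894751 to 76894811 and at 76895011 to 76895051, also 250 bp apart, had 14 tags each. At 260 bp, the site on chromosome 5 at 23900151 to 23900191 had 93 tags and the one at 23900411 to 23900451 had 30. In 4 of the 5 pairs the stronger site thus had more than 2 times the tags of the weaker one, and 1 pair was even. For the pair of 31 and 14 tags the exact Poisson intervals, 21.1 to 44.0 and 7.65 to 23.5, overlapped. The even pair stood at the minimum of 14 tags.

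Close neighbours had higher median tags than the other distance classes, but their intervals overlapped those of sites 1 to 100 kb from a neighbour. Sites with a neighbour within 500 bp had a median of 44 tags (35 to 59) and those with one at 500 to 1000 bp a median of 45 (37 to 54). The median was 35 tags (33 to 39) at 1 to 10 kb, 36 (34 to 38) at 10 to 100 kb, 32 (31 to 34) at 100 kb to 1 Mb and 29 (25 to 32) beyond 1 Mb. At 100 tags or more stood 18.1% of sites with the nearest neighbour at 500 to 1000 bp (11.6 to 26.3) and 5.24% of those beyond 1 Mb (2.64 to 9.18), while the 14.04% at 10 to 100 kb (12.6 to 15.6) lay within the first interval. Local input moved with spacing as well: its mean was 3.20 tags within 500 bp and 2.46 beyond 1 Mb, and the share of sites with 1 input tag was 16.6% (11.1 to 23.3) and 28.1% (22.1 to 34.7). Since a site of higher input needed more tags, the part of input in the difference was not tested. Without the X and Y chromosomes, where sites were sparse, the medians were 44 tags within 500 bp and 29 beyond 1 Mb, the same as with them. Mean input on the autosomes was 3.23 tags within 500 bp and 2.54 beyond 1 Mb. The autosomal shares of sites with 1 input tag were 15.9% (10.5 to 22.7) and 25.4% (19.4 to 32.1), with overlapping intervals. No source used here says whether tags of 1 site also count towards a close neighbour.

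Within the 137 pairs at most 1 kb apart, the stronger site had a median of 2.30 times the tags of the weaker one (2.03 to 2.81). That ratio was 2.00 (1.79 to 2.16) for 275 neighbouring pairs 1 to 10 kb apart and 1.94 (1.85 to 2.00) for 1528 pairs 10 to 100 kb apart. It was 1.95 (1.88 to 2.04) at 100 kb to 1 Mb and 1.89 (1.80 to 2.04) beyond 1 Mb. Of these intervals, the one at 10 to 100 kb alone did not overlap that of the close pairs. Tag counts of the neighbours had a rank correlation of 0.0040 over the close pairs and 0.11 over those 10 to 100 kb apart. The strength of an NF-YA site thus said little about the strength of the next one at any distance measured. In 37 close pairs (27.0%, 19.8 to 35.3) the tags differed by at most 1.5-fold, against 32.4% (30.1 to 34.8) at 10 to 100 kb.

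Joined at 10 kb or less, 758 NF-YA sites formed 346 runs, of which 295 were pairs and 51 held 3 sites or more. The longest run, 8 sites in 23.8 kb on chromosome 13 from 23830611 to 23854371, was built of 4 pairs with 960 to 1260 bp between the centres. Its sites had 16 and 63 tags, then 60 and 82, 39 and 42, and 68 and 66 along the chromosome. Their local input ran from 1 to 5 tags, so that the site of 82 tags had a fold of 98.3 and the site of 63 tags a fold of 15.1. The second run, 7 sites from 23648011 to 23677971, was also on chromosome 13 and had 20 to 152 tags per site. A run of 6 sites lay on chromosome 8 from 73987591 to 74012571, with 14 to 114 tags.

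The NF-YA sites farthest from any other had fewer tags than the list's median of 34 in 4 of 5 cases. On the X chromosome the site at 119511091 to 119511191 had its nearest neighbour 9.10 Mb away and 31 tags over 1 input tag. Also on the X chromosome, the site at 83022151 to 83022211 was 7.51 Mb from its neighbour and had 23 tags over 1 input tag. The site on chromosome 17 at 95234091 to 95234271 stood 6.77 Mb apart with 29 tags, and the one on chromosome 14 at 106147711 to 106147751 stood 5.29 Mb apart with 15. The exception, on chromosome 18 at 90749051 to 90749151 and 5.67 Mb from its neighbour, had 85 tags and a fold of 51.0.

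Chromosomes differed more in the density of NF-YA sites than in the median tags of those sites. Density over the span from the first to the last site of any list was highest on chromosome 11 (3.47 sites per Mb) and, among the autosomes, lowest on chromosome 14 (1.12 sites per Mb). Among the autosomes, median tags ran from 29 on chromosome 16 (27 to 37) to 39.5 on chromosomes 11 (35 to 44) and 12 (32 to 45). The autosomal share of sites with 100 tags or more ranged more widely, from 8.03% on chromosome 1 (4.98 to 12.1) to 17.0% on chromosome 7 (13.5 to 21.0). The leading site of chromosome 11 was the one of 293 tags at 96839151. Chromosome 19, the autosome of second highest density (2.95 sites per Mb), was led by a site at 12040051 to 12040091 with 282 tags over 4 input tags, a fold of 84.6. The highest count on chromosome 13 was 157 tags, the lowest maximum of an autosome.

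The X chromosome stood apart in local input as well as in density. NF-YA sites there numbered 116, or 0.728 per Mb, against 1.90 per Mb over the autosomes. Mean local input was 2.00 tags on the X chromosome, below every autosome (2.82 on chromosome 13 to 3.38 on chromosome 11). Sites with 1 input tag made up 39.7% on the X chromosome (30.7 to 49.2) and 20.3% on the autosomes (19.1 to 21.5), and the highest autosome, chromosome 16, had 27.2%. Median tags were 26.5 on the X chromosome (24 to 34) and 35 on the autosomes (34 to 36), a ratio of 1.32. The interval of that ratio, 1.03 to 1.46, takes the autosomal median as fixed, and the intervals of both medians meet at 34 tags. Only 1 X-chromosomal site had 100 tags or more (0.862%, 0.0218 to 4.71), against 590 autosomal ones (13.0%, 12.1 to 14.1). That site, at 148777171 to 148777211, had 102 tags over 3 input tags and a fold of 40.8. The median fold was higher on the X chromosome, at 20.4 (18.0 to 21.6) against 16.8 (16.8 to 17.5), so that tags and folds ranked the X chromosome in opposite order. At 1 input tag the minimum of 14 tags already gives a fold of 16.8, and the part of this limit in the difference was not tested. Median folds on the X chromosome and the autosomes were 16.9 (12.6 to 19.9) and 16.9 (16.4 to 17.3) in the NF-YB list. In the NF-YC list they were 18.1 (16.9 to 19.9) and 16.3 (15.5 to 16.9).

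Median tags of X-chromosomal and autosomal NF-YA sites were also set side by side in classes of local input. With 1 input tag the median was 20 tags on the X chromosome (17 to 25, 46 sites) and 22 on the autosomes (21 to 23, 917 sites). These intervals overlapped. At more than 1 and up to 2 input tags the median was 34 (24 to 40, 37 sites) against 23 (22 to 24). Above 2 input tags it was 32 (26 to 42, 33 sites) against 49 (48 to 52). This last class pools input counts up to 15, and the fold limit raises the tags needed from 18 at 3 input tags to 88 at 15. It therefore does not compare sites of equal input. No test between chromosomes was made, since sites of 1 library are not replicates, and copy number of the chromosomes was not measured here. The lists of NF-YB and NF-YC, called against the same input, also had lower mean input on the X chromosome, at 1.98 against 2.96 tags and 1.80 against 3.20. Chromosome Y had 2 NF-YA sites, one of 36 tags at 2862331 to 2862791 and one of 22 tags at 582171 to 582231.

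**Figure D5:**
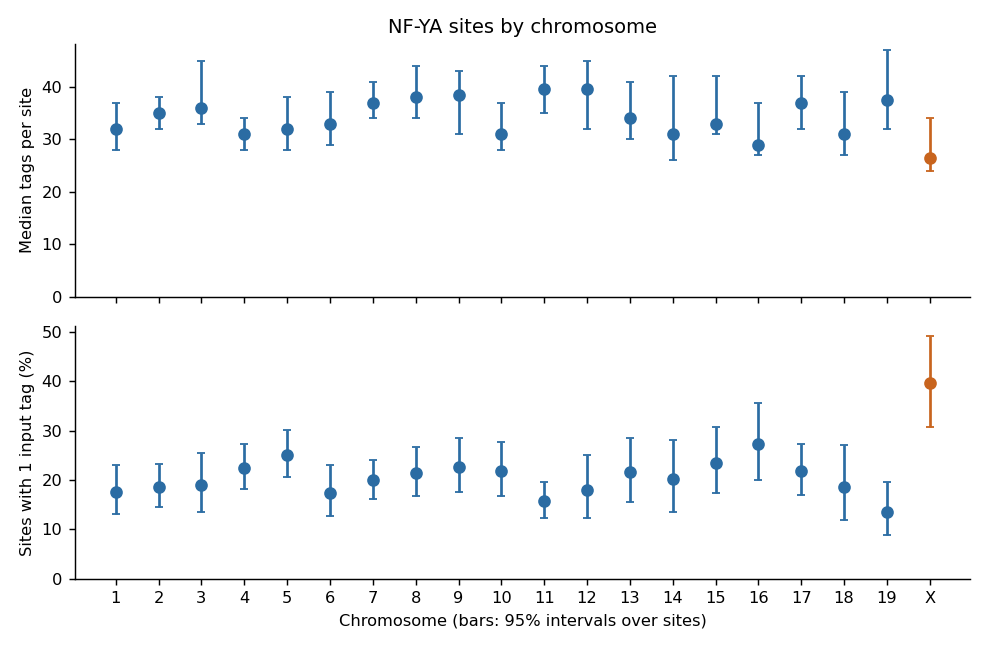
Median tags per NF-YA site (upper panel) and share of sites with 1 input tag in percent (lower panel) for the 19 autosomes and the X chromosome, with 95% intervals over sites. The X chromosome, in orange, has 26.5 tags and 39.7% of its sites at 1 input tag, against at most 27.2% on an autosome.

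Set beside the other lists, the NF-YA list had the largest share of wide sites and of tags in its strongest sites. Wider than 60 bp were 35.2% of NF-YA sites (33.8 to 36.6), 22.5% of NF-YB sites (21.0 to 24.1) and 31.7% of NF-YC sites (29.9 to 33.5). The strongest 10% of sites held 31.5% of the NF-YA site tags, against 29.5% in the NF-YB list and 25.6% in the NF-YC list. Mean local input was 3.03 tags at NF-YA sites, 2.94 at NF-YB sites and 3.18 at NF-YC sites. Sites with 1 input tag made up 20.8% of the NF-YA list (19.6 to 22.0), 24.3% of the NF-YB list (22.7 to 25.9) and 19.3% of the NF-YC list (17.8 to 20.9). The shorter lists had wider spacing, with a median of 109.5 kb in the NF-YB list (100.7 to 117) and 109.6 kb in the NF-YC list (101.0 to 116.7). The 3 libraries differ in antibody and depth and share the input, so these values describe the lists, and no difference between subunits was tested.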

How the data were processed

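One NF-YA ChIP-seq library and 1 input library were compared; the NF-YB and NF-YC lists served only as lists measured the same way. The submitters' processing notes name Bowtie and the mm9 build; no source used here gives the aligner's version or settings. The authors called sites in each library with SISSRs 1.4, per the file headers (e-value 10, p-value threshold 0.001, window 20 bp, mappable fraction 0.80, 1 tag kept per position, at least 2 directional tags on each side). Keeping 1 tag per position caps the counts of the strongest sites. The deposited tag counts are whole and not normalized, the deposited fold is a ratio to scaled input tags, and the deposited p-value is the caller's own.

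Local input was tags / (fold × kept tags / input tags), set to a whole number where the quotient gave the fold within 0.005 and otherwise left as it was; its lowest value was 1. A site's centre was its midpoint. Positions are printed as listed; no source used here says whether the first base is 0 or 1. Medians carry order-statistic, shares Clopper-Pearson and tag counts Poisson intervals (95%, exact), which cover counting error only. PCR duplicates were reduced to 1 tag per position and not identified by molecular tags. Fold intervals come from the binomial split of site and input tags. No test was made, since each group had 1 library.

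Named sites were the 10 with most tags, the 5 of highest fold, width, local input and isolation, the 5 closest pairs, the leading sites of chromosomes named for density, and sites at the limits; runs of sites were chosen after their values were seen. Members, lists and rules were chosen with earlier results of these data known. Alternatives covered stricter limits, chromosomes, wide sites, the input recovery, distances and ranking. The functions were tested on simulated lists. Tables were computed with pandas 2.3.3, numpy 2.4.6 and scipy 1.17.1 under Python 3.11.15, and plots drawn with matplotlib 3.10.9.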

Additional observations from a re-analysis of the deposited data

How the results depend on the processing

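Of 68 alternative values, 34 stayed within the interval of the reported value (for the correlation, within 0.005) and 34 did not. Most of these values are medians or shares and have no direction. Only the rank correlation and the ratios of autosomes to the X chromosome could turn in direction, and none of these did. With a fold of at least 10, the median tags became 42, the median fold 20.4, the median local input 2, the share of sites with 1 input tag 26.6%, the nearest distance 86010 bp, the share with a neighbour within 10 kb 13.1%, the tags in the strongest 10% 29.8% and the rank correlation of tags and input 0.65. With at least 20 tags these were 44 tags, a fold of 18.9, 15.2% with 1 input tag, 78640 bp, 14.05%, 28.5% and 0.41, and 31.7% of sites were wider than 60 bp. Both limits take sites from the low end of tags or fold, which moves these values by construction. Without sites wider than 60 bp there were 43 tags, a fold of 18.0, 19.04% with 1 input tag, 105670 bp, 11.8%, 29.8% and 0.52. Ranking by fold put 22.9% of the tags in the first 10%. Scaling by all NF-YA tags gave a median input of 2.19, 46.7% of sites at 1 input tag after rounding and a rank correlation of 0.50. Unrounded input also gave 0.50, and sites of 88 tags or more 0.12. Rounding the input at every site gave 22.8% with 1 input tag, and sites with a whole count alone 22.4%. A neighbour lay within 1 kb of 5.88% of sites and within 50 kb of 44.4%. Between autosomes alone, the densest and sparsest differed 3.09-fold, against 4.77-fold with the X chromosome. The X chromosome had lower mean input than the autosomes in each of the 4 added settings, with an autosomal mean 1.48 to 1.56 times higher. Settings on the X chromosome, on sites of 88 tags or more and on whole or rounded counts were chosen after seeing the data. The CCAAT share was not run for want of mm9 sequence. No paired analysis was possible because each group had 1 library, and leaving out a replicate was impossible for the same reason. The list ends at 14 tags: weaker NF-YA binding is not detectable there.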

Other observations

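The number of NF-YA sites per 1 Mb window varied widely. Of 1414 windows that held a site, 490 held 1 site and 73 held 10 or more, and those 73 carried 985 sites (21.2% of the list). The fullest window, on chromosome 7 from 52000001 to 53000000, held 29 sites with a median of 42 tags. It was followed by chromosome 10 from 80000001 to 81000000 with 26 sites (median 49.5 tags), chromosome 17 from 34000001 to 35000000 with 25 sites (median 33 tags) and chromosome 13 from 23000001 to 24000000 with 24 sites (median 48.5 tags). A further 24 sites lay on chromosome 17 from 56000001 to 57000000, with the highest median of these 5 windows, 58.5 tags. The windows were chosen by their site counts after these were seen, and their gene content was not analysed here.

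Stronger sites lay in more crowded surroundings. The nearest NF-YA site was a median of 36.1 kb away (32.4 to 46.8) for the 93 sites of 200 tags or more and 78.3 kb (71.0 to 85.4) for sites of 14 to 29 tags. A neighbour within 10 kb was found for 22.6% of the former (14.6 to 32.4) and for 14.7% of sites with 14 to 19 tags (12.6 to 17.1), with overlapping intervals. Across the 19 autosomes, the rank correlation between site density and median tags was 0.41, and between mean local input and median tags 0.50; these chromosomes share 1 library pair and the caller's limits.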
